A study of Mus musculus with 11 samples.

Results

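Accessibility of the Bicd1, Slc24a3 and Cyp3a44 loci was examined in mouse embryonic stem (ES) cells. The 3 loci were defined as windows of the GRCm38 genome around each gene, with an upstream flank at Slc24a3, and a region of the deposited count table belonged to a locus when its start lay in the window. The listed regions span chr6:149392725-149566738 at Bicd1, chr2:145122215-145657134 at Slc24a3 and chr5:145751529-145818439 at Cyp3a44. The windows held 73 of the 248336 regions in the table, with 15 at Bicd1, 53 at Slc24a3 and 5 at Cyp3a44. All 73 passed the filter on low counts. The loci were chosen because each holds a region, termed its lead region here, that was lower with the DBA/2J (D2) allele of an interval of chromosome 13 in both of the study's backgrounds. The values of the 3 lead regions in those comparisons are therefore given as a description, without a test.

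Bicd1 encodes an adaptor that links the motor dynein to its cargo. Slc24a3 encodes a potassium-dependent sodium/calcium exchanger of the plasma membrane, and Cyp3a44 encodes a cytochrome P450 of a family known from drug and steroid metabolism in the liver. The genes lie on chromosomes 6, 2 and 5, so a difference there that follows an interval of chromosome 13 is a difference in trans. Clusters of KRAB zinc finger genes, whose proteins bind transposable elements and recruit TRIM28 and the enzymes that form heterochromatin, are a known source of such trans effects in mouse ES cells.

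Open chromatin was profiled by FAST-ATAC from 100000 cells per library in 4 ES cell lines. The B6 line was from C57BL/6J (3 libraries) and the D2 line from DBA/2J (3 libraries). The B6-13D2 line was from the congenic strain B6.D2-(rs30079041-rs51756099)/Bakr, which carries D2 alleles in the chromosome 13 interval on a B6 background (2 libraries). The D2-13B6 line was from the reciprocal congenic strain, with B6 alleles in a chromosome 13 interval on a D2 background (3 libraries). The intervals of the congenic strains are not the same: that of D2-13B6 is given as starting at another marker, rs29224292, and its end is in doubt, since the sample labels give rs13469455 and the design text rs51756099. All lines grew in serum medium with LIF, 1 µM of the MEK inhibitor PD0325901 and 3 µM of the GSK3 inhibitor CHIR99021. Each genotype was represented by 1 cell line, and the labels call the libraries technical replicates, so errors and tests measure only the spread of libraries within a line. B6-13D2 against B6 and D2 against D2-13B6 each set D2 against B6 alleles of such an interval within 1 background, and they share no library. For brevity both intervals are called the interval below. Library totals in regions ran from 15198496 to 43042955. All values are CPM normalised by TMM, the count in a region relative to the scaled total of its library.

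The libraries were checked against markers of cell types through the regions within 1000 bp of their start sites. The summed level of 6 ES cell genes was 316 to 329 normalised CPM in the B6 libraries, 314 to 339 for B6-13D2, 176 to 195 for D2-13B6 and 274 to 309 for D2. The 5 fibroblast genes summed to 44.7 to 49.6 for B6, 39.4 to 43.3 for B6-13D2, 86.2 to 117 for D2-13B6 and 51.1 to 61.2 for D2, with no region at Col3a1. The D2-13B6 line thus stood apart in both lists, and the part of this in the results that use D2-13B6 was not tested. Of the fibroblast genes, Postn was not highest there, with means of 1.17 in D2-13B6, 1.21 in B6 and 1.28 in B6-13D2. The 4 primitive endoderm genes summed to 77.1 to 83.1 for B6 and 75.7 to 76.4 for B6-13D2. Their sum was 72.7 to 86.2 for D2-13B6 and 74.6 to 88.0 for D2, so D2-13B6 did not stand apart in that list. None of the 4 hepatocyte genes examined (Alb, Ttr, Apoa2, Serpina1a) had a listed region.

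The sequences of the lead regions come first, since they are what the 3 loci share and differ in. The Cyp3a44 lead region, chr5:145779716-145780847, holds 34 coding bases of a Cyp3a44 exon at its low-coordinate end and is otherwise intronic. Its sequence repeats with a period of 201 bases, and 61.3% of its bases equal the base 1 period further on. Sequence of this tandem unit covered 933 of its 1132 bp and no exon base. The Slc24a3 lead region, chr2:145139491-145140273, is intergenic and lies 27481 bp upstream of the Slc24a3 start. Its last 242 bp match the same unit at up to 88.2% identity, and the next listed region, chr2:145140340-145140526, which begins after a gap of 66 bp, matches it over all 187 bp. The Bicd1 lead region, chr6:149471110-149472212, lies in an intron of Bicd1 and had no match to the unit. Printed below from the GRCm38.p6 genome of RefSeq, plus strand, are 1 period of the unit at Cyp3a44, the matching stretches of the 2 Slc24a3 regions, with a run of 23 bases common to all of them in capitals, and the central 300 bases of the Bicd1 lead region, with the 280 bases that are not soft-masked as repeats in capitals.
Cyp3a44 lead region, chr5:145780042-145780242: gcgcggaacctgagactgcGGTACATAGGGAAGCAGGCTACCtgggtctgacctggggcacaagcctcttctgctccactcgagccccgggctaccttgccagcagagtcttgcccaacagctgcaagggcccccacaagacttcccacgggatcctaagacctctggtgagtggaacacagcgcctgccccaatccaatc
Slc24a3 lead region, chr2:145140032-145140273: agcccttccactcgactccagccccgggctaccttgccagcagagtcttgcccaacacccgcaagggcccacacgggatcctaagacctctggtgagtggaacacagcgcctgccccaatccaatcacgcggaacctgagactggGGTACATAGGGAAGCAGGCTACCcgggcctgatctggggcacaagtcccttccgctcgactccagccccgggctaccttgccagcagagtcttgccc
Slc24a3 next region, chr2:145140340-145140526: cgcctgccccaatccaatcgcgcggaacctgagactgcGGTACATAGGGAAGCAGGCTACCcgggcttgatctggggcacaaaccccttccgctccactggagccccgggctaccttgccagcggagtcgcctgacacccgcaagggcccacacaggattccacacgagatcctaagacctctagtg
Bicd1 lead region, chr6:149471512-149471811: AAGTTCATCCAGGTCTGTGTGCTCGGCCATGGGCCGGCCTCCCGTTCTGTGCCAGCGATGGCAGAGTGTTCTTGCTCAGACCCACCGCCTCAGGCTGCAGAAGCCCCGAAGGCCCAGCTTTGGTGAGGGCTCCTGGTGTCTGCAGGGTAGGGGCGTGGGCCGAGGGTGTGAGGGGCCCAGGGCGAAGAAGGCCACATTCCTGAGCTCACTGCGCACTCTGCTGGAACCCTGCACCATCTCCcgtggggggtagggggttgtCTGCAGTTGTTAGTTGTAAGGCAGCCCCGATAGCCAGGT

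The 23-base run stands in each of the 3 printed stretches of unit, on the same strand of the reference. Soft-masked bases made up 87.2% of the Cyp3a44 lead region, 42.8% of the Slc24a3 lead region and 66.9% of the Bicd1 lead region. Tandem units of about this length are known from the promoters of young mouse LINE-1 retrotransposons, but no repeat annotation was used here and the family was not assigned. The Cyp3a44 lead region had 4225 alignments elsewhere in the genome at 80% identity or more over at least 50% of its length. The Bicd1 lead region had 7 and the Slc24a3 lead region had 0. Alignments that overlap at the same place were not merged, so these are not numbers of copies. Placement of reads in such sequence depends on how reads with several matches were treated, which is not given in the sources used here. No window of 150 bases, the read length, in any of the 3 lead regions occurred exactly elsewhere in the reference. For windows of 50 bases the share found elsewhere was 20.2% at Bicd1, 25.8% at Slc24a3 and 42.3% at Cyp3a44.

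Motifs of ES cell factors were searched in the central 300 bases of each lead region, on both strands. The letters searched were ATGCAAAT (octamer), CATTGT (SOX core), TCAAGGTCA (ESRRB), CCACCC (KLF core), AGGGGGC (within the CTCF motif) and CACGTG (E-box). None of the 6 was found in any of the 3 windows. In the same windows of all regions, the shares with a match were 3.23%, 17.4%, 1.37%, 27.0%, 6.10% and 5.25%. Among the regions that hold the tandem unit, the E-box letters were found in 7.91% and the SOX core in 2.17%.

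At all 3 lead regions B6 was the most accessible line, and both lines with the D2 interval were low. The Bicd1 lead region had 11.5, 11.4 and 12.3 normalised CPM in the B6 libraries. It had 2.05 and 2.34 in B6-13D2, which is 18.7% of the B6 mean. In D2-13B6 it had 3.77, 3.82 and 4.23, and in D2 1.69, 1.10 and 2.09, or 41.3% of the D2-13B6 mean. No library with the D2 interval reached the lowest library with the B6 interval in either background. In bulk libraries, fewer cells with an open site and less opening per cell cannot be told apart.

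The Cyp3a44 lead region had 7.29, 11.04 and 8.93 normalised CPM in B6 and 2.09 and 1.25 in B6-13D2. It had 2.75, 4.64 and 3.96 in D2-13B6 and 1.14, 1.63 and 1.58 in D2. The order of the lines was the same as at Bicd1, with 18.4% of the B6 mean in B6-13D2 and 38.4% of the D2-13B6 mean in D2. The Slc24a3 lead region was the weakest of the 3, with 4.42, 4.70 and 4.03 normalised CPM in B6 and 1.18 and 0.648 in B6-13D2. It had 2.42, 2.45 and 1.86 in D2-13B6 and 0.545, 0.830 and 0.774 in D2. That is 20.9% of the B6 mean in B6-13D2 and 31.9% of the D2-13B6 mean in D2, again without overlap.

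**Figure D1:**
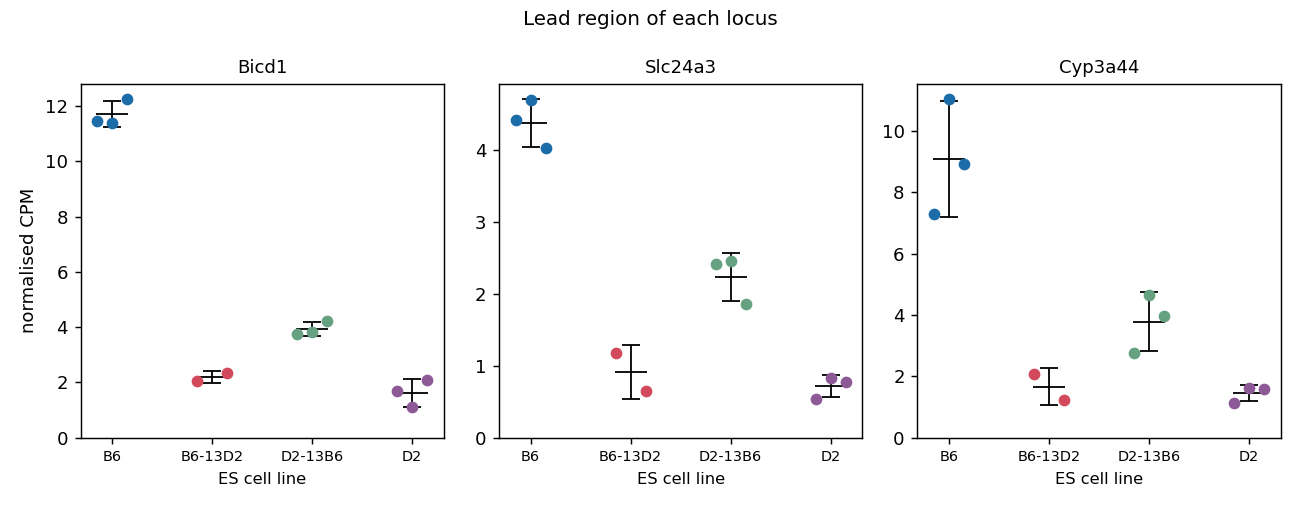
Normalised CPM of the lead region of each locus in each library (points), by ES cell line, with the mean (dash) and SD (bars; n = 3, 2, 3 and 3). B6 is highest at each locus, D2-13B6 lies between B6 and the lines with the D2 interval, and B6-13D2 overlaps D2.

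On the log2 scale of the fit, B6-13D2 against B6 was -2.42 ± 0.24 (SE) at Bicd1, -2.24 ± 0.31 at Slc24a3 and -2.42 ± 0.27 at Cyp3a44. D2 against D2-13B6 was -1.28 ± 0.21 at Bicd1, -1.65 ± 0.26 at Slc24a3 and -1.38 ± 0.22 at Cyp3a44. The difference with the interval was thus numerically smaller in the D2 background at each lead region, and the value of the interaction term was -1.14 ± 0.32 at Bicd1, -0.59 ± 0.41 at Slc24a3 and -1.04 ± 0.35 at Cyp3a44. The lines with the B6 interval were not alike. D2-13B6 had 33.6% of the B6 mean at Bicd1, 51.2% at Slc24a3 and 41.6% at Cyp3a44, with no overlap between libraries. Whether the sequence of the lead regions is present in the D2 genome was not tested. The lines with the D2 interval overlapped at all 3 lead regions.

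The 3 lead regions also varied together over the libraries. Pearson's r of log2 CPM over the 11 libraries was 0.935 for Bicd1 with Cyp3a44, 0.922 for Bicd1 with Slc24a3 and 0.971 for Slc24a3 with Cyp3a44. These points share their libraries and fall into the 4 lines, and the regions were chosen for the pattern, so the values are a description. By the larger of the p-values of both interval comparisons, the 3 lead regions came first among the regions off chromosome 13 called lower in both. Their order was Slc24a3, Bicd1, Cyp3a44. The loci were chosen on these same comparisons, so the rank restates that choice and is a description. The next region, chr2:151879567-151880711, 12607 bp from a start of Rspo4os, had means of 8.61 normalised CPM in the B6 libraries, 2.72 in those of B6-13D2, 6.48 in those of D2-13B6 and 3.06 in those of D2. Its log2 fold changes were -1.66 and -1.08, and 277 of its bases matched the tandem unit.

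Regions elsewhere in the genome with the most similar pattern over the 11 libraries were sought among those off chromosome 13 with a mean of at least 1 normalised CPM. For the Bicd1 lead region these were chr19:18357549-18358324 (r = 0.978), chr19:39248211-39249594 near Cyp2c53-ps (r = 0.976) and a region near Gas7 on chromosome 11 (r = 0.975). The first and second of these hold the unit, over 512 and 907 bases, and the one near Gas7 holds 0 bases of it. The closest match of the Cyp3a44 lead region was chr1:14084783-14085799 (r = 0.980), with 0 bases of unit, followed by regions near Gm12806 and Gm17076 with 585 and 509 bases. For the Slc24a3 lead region, the closest were chr7:136666234-136667909 (r = 0.975), the Cyp3a44 lead region and chr10:77569544-77569953 (r = 0.970), the first and last of these with 0 bases of unit. Of the 9 matches, 4 thus hold none of the unit.

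The remaining 70 regions of the 3 loci were then compared, to ask whether the loci moved as a whole. In B6-13D2 against B6, 1 of the 70 was called at an adjusted p-value under 0.05. It was lower, where 0.335% of all 246840 regions tested were called lower and 0.139% higher. The 3 lead regions bring the count to 4 of 73 in either direction (0.474% of all regions), but they were chosen on this comparison. In D2 against D2-13B6, 9 of the 70 were called lower and 0 higher, with 15.2% of all regions called lower and 8.53% higher. With the lead regions, 12 of 73 were called, against 23.7% of all regions. All 9 lie at Slc24a3. The median log2 fold change of the 70 regions was 0.06 in B6-13D2 against B6 and -0.10 in D2 against D2-13B6, and over all regions tested it was -0.01 and 0.04.

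**Figure D2:**
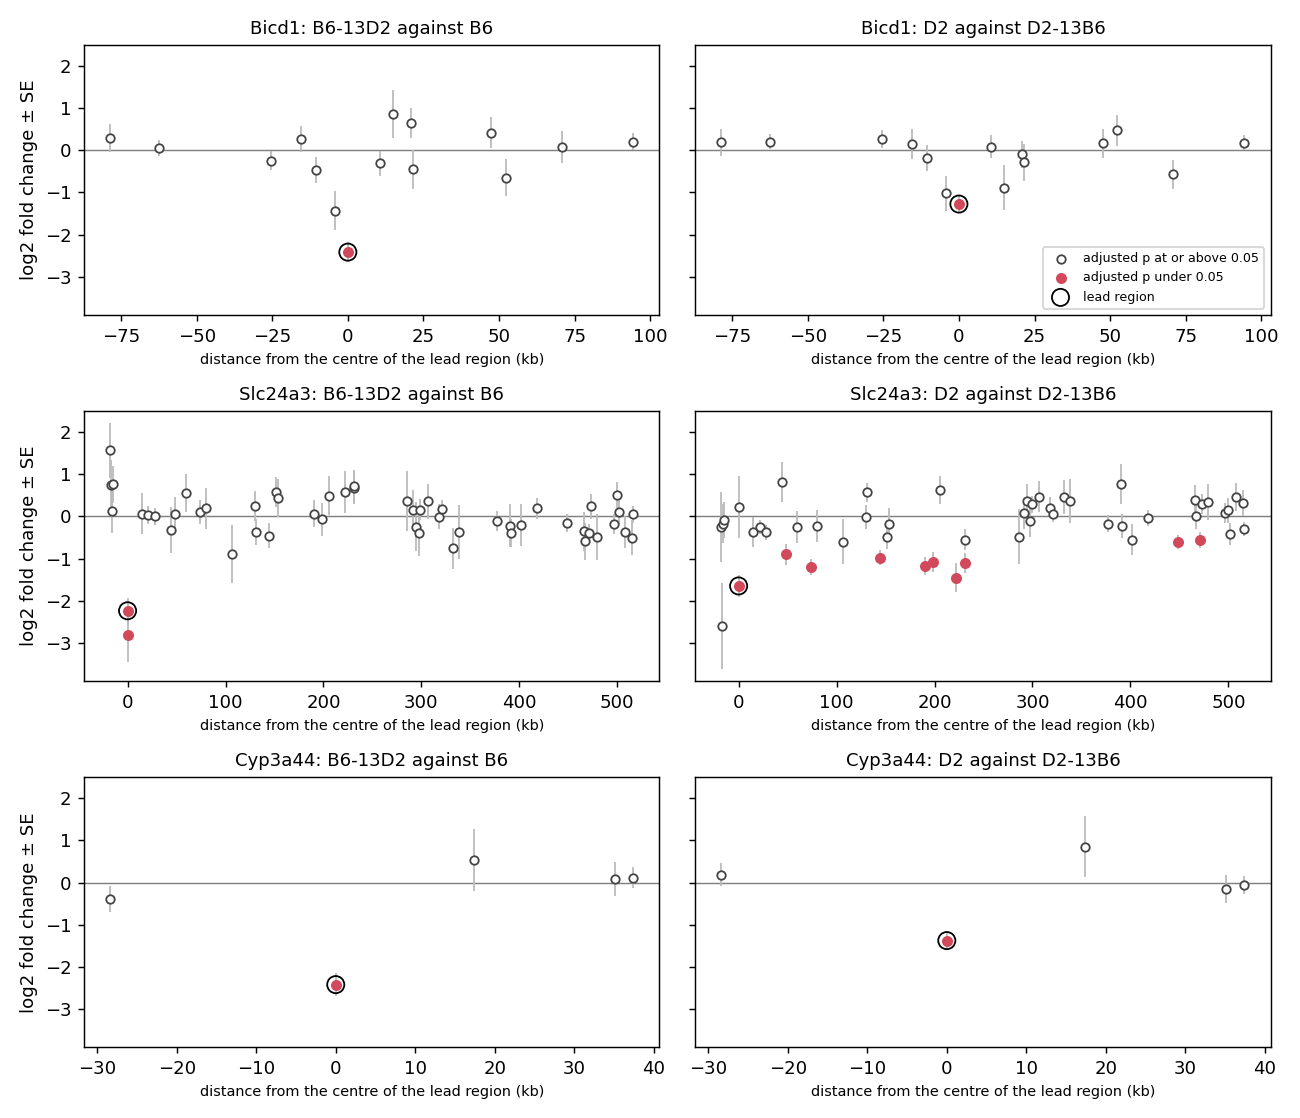
Log2 fold change (points, with SE) of each region of the 3 loci against its distance in kb from the centre of the lead region, for both interval comparisons. Filled points passed an adjusted p-value of 0.05 and ringed points are the lead regions. In B6-13D2 against B6, the lead regions and the region beside the Slc24a3 lead region are the only filled points.

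The single further region called in B6-13D2 against B6 was the neighbour of the Slc24a3 lead region that consists of the unit. It had 1.16, 1.22 and 1.66 normalised CPM in B6 and 0.227 and 0.149 in B6-13D2, from 93 counts and 8 counts in all. Its log2 fold change was -2.80 ± 0.65 (SE), with an adjusted p of 0.0167 in edgeR's quasi-likelihood test. The call was lost without B6 replicate 3 (-2.62, edgeR adjusted p = 0.137), without B6-13D2 replicate 1 (-3.14, edgeR adjusted p = 0.214) and without B6-13D2 replicate 2 (-2.55, edgeR adjusted p = 0.369), while the size of the difference stayed similar. The last 2 leave B6-13D2 with 1 library, which is then assumed to vary like the other groups. In the D2 background it was near the limit of detection, with 0.156, 0.0606 and 0.0688 in D2-13B6 and 0.259, 0.0535 and 0.0287 in D2. These groups overlapped and the comparison was not called (0.23 ± 0.74, edgeR adjusted p = 0.865). D2-13B6 carries the B6 interval, yet it was lower than B6, at a log2 fold change of -3.72 ± 0.57 (SE; edgeR adjusted p = 1.01e-07). Whether this stretch is present in the D2 genome was not tested.

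Summed over a locus without its lead region, accessibility at Bicd1 was 63.2, 63.7 and 68.6 normalised CPM in B6 and 68.2 and 68.8 in B6-13D2, or 105% of the B6 mean. The sum was 99.7% of the B6 mean at Slc24a3 and 98.6% at Cyp3a44, and the libraries of the 2 lines overlapped at each locus. In the D2 background the sum in D2 was 111% of the D2-13B6 mean at Bicd1 and 101% at Cyp3a44, with overlap. At Slc24a3 it was 76.8%, with 119, 115 and 127 in D2 and 155, 179 and 136 in D2-13B6, which did not overlap.

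Promoter regions, those within 1000 bp of a start site, were set against the lead regions. The Bicd1 promoter region, chr6:149408300-149409961, lies 61148 bp from the lead region and had the highest mean of the locus over all 11 libraries, though in B6 and B6-13D2 the region at Gm21814 was higher. It had 18.2, 21.6 and 21.7 normalised CPM in the B6 libraries, 21.4 and 21.1 in those of B6-13D2, 22.7, 30.1 and 17.8 in those of D2-13B6 and 29.1, 23.6 and 28.7 in those of D2. All comparisons with the interval overlapped, with a log2 fold change of 0.05 ± 0.19 (SE; edgeR adjusted p = 0.987) for B6-13D2 against B6 and 0.20 ± 0.17 (edgeR adjusted p = 0.430) for D2 against D2-13B6. The latter was called as higher in D2 when scaled by total counts (0.40, edgeR adjusted p = 0.00717) and without D2-13B6 replicate 2 (0.42, edgeR adjusted p = 0.0394).

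The Slc24a3 promoter region, chr2:145166730-145168922, had 14.2, 12.0 and 13.0 normalised CPM in B6 and 12.8 and 13.4 in B6-13D2. The difference was 0.00 ± 0.20 (SE; edgeR adjusted p = 1.00). It had 28.03, 35.6 and 20.4 in D2-13B6 and 23.7, 20.001 and 20.97 in D2, and the difference of -0.38 ± 0.17 was not called (edgeR adjusted p = 0.0970), although it was without D2-13B6 replicate 3 (-0.56, edgeR adjusted p = 0.00106). Against B6 it was higher in D2, by 0.72 ± 0.17 (edgeR adjusted p = 0.00122), and in D2-13B6, by 1.10 ± 0.17 (edgeR adjusted p = 2.77e-07). The promoter was therefore more accessible in both lines of the D2 background, the background in which the lead region was less accessible than in B6.

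Further starts of the Slc24a3 locus gave weaker regions. Those at an internal Slc24a3 start, chr2:145605599-145605920 and chr2:145606226-145606815, had group means of 0.636 to 1.37 normalised CPM and were called in none of the 5 comparisons between lines nor for the interaction. RefSeq lists a further Slc24a3 start on the plus strand whose promoter window, chr2:145242361-145242660, matched the tandem unit over all 300 bases at 93.3% identity. No listed region lay within 3839 bp of that start, so its accessibility was not measured here. For Cyp3a44, no listed region lay within 1000 bp of the only annotated start, the nearest being 8135 bp away, so the promoter has no value to set against the lead region. That nearest region had 0 to 0.546 normalised CPM in every library.

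**Figure D3:**
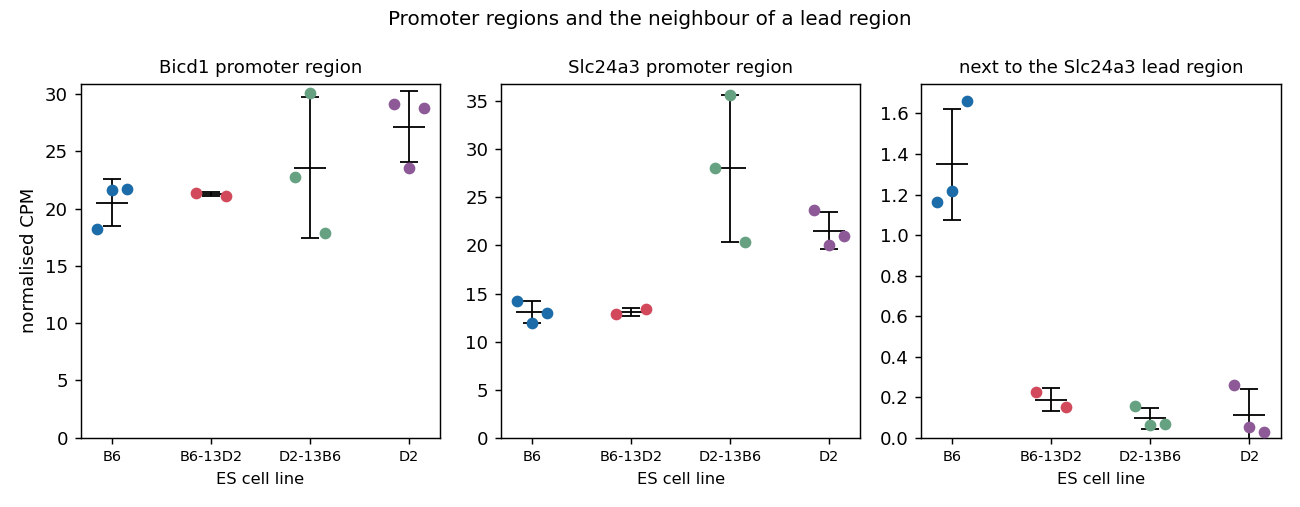
Normalised CPM in each library (points) of the Bicd1 and Slc24a3 promoter regions and of the region beside the Slc24a3 lead region, by ES cell line, with the mean (dash) and SD (bars; n = 3, 2, 3 and 3). B6 and B6-13D2 overlap at both promoter regions, whereas the neighbour of the lead region is above 1 in B6 and under 0.3 in all other libraries.

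Within the Bicd1 locus, none of the other 14 regions was called in either interval comparison in edgeR's test, where 0.474% and 23.7% of all regions were called. At an unadjusted p under 0.05 there was 1 in each, where 7.48% and 33.9% of all regions were. DESeq2 called 0 in B6-13D2 against B6 and 1, lower, in D2 against D2-13B6 (16.0% of all regions lower). In the latter, edgeR with total counts called 2 higher (16.0% of all regions). The nearest region, chr6:149467080-149467533, lies 3576 bp before the lead region in the same gene. It had 1.36, 1.403 and 1.31 normalised CPM in the B6 libraries, 0.409 and 0.598 in those of B6-13D2, 0.727, 0.727 and 0.481 in those of D2-13B6 and 0.208, 0.348 and 0.401 in those of D2. The groups did not overlap in either background, but neither difference passed the test, at -1.43 ± 0.46 (edgeR adjusted p = 0.229) and -1.03 ± 0.41 (edgeR adjusted p = 0.0574). The region on the other side, 9849 bp away, overlapped in both comparisons. The region at the start of Gm21814 downstream of Bicd1 had group means of 23.4 in the B6 libraries, 27.0 in those of B6-13D2, 12.9 in those of D2-13B6 and 14.7 in those of D2, and its log2 fold changes with the interval were 0.20 ± 0.20 and 0.18 ± 0.18 (edgeR adjusted p = 0.911 and 0.517).

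Many of the other Bicd1 regions were called between lines of different background. D2 against B6 differs in both background and interval, so it cannot tell them apart. In D2 against B6, 9 of the 14 were lower and 0 higher, where 8.8% of all regions were lower. In D2-13B6 against B6, 8 of 14 were lower (20.1% of all regions), and in D2 against B6-13D2 also 8 of 14 (7.24% of all regions). These comparisons share lines. Over all 73 regions, 34, 34 and 23 were called in either direction in these comparisons, where 22.5%, 41.7% and 18.8% of all regions were. The intronic region chr6:149460877-149461576 had 2.99, 2.20 and 2.76 normalised CPM in B6 and 1.64 and 2.24 in B6-13D2, against 0.779, 0.697 and 0.757 in D2-13B6 and 0.623, 0.589 and 0.745 in D2. Its log2 fold change was -2.03 ± 0.28 in D2 against B6 (edgeR adjusted p = 7.85e-08) and its groups overlapped in both interval comparisons. The regions chr6:149445931-149446786 and chr6:149455820-149456474 also overlapped or were not called in both interval comparisons, with D2 against B6 at -1.24 ± 0.21 (edgeR adjusted p = 3.94e-06) and -1.79 ± 0.31 (edgeR adjusted p = 7.85e-06). Reads of D2 lines were counted on reference coordinates, and the part of sequence differences between strains in these differences between lines was not tested.

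At Slc24a3 regions were called in both directions between lines of different background. Of the 52 regions other than the lead region, 8 were lower and 14 higher in D2 against B6. The shares of all regions were 8.8% and 13.7%. In D2-13B6 against B6, again 8 were lower and 14 higher, where 20.1% and 21.6% of all regions were. Each comparison thus called 42.31% of the 52, against 22.5% and 41.7% of all regions, so the latter was near the share of all regions. In D2 against B6-13D2, 7 were lower and 8 higher, where 7.24% and 11.6% of all regions were. Scaled by total counts, the split of D2-13B6 against B6 turned to 14 lower and 11 higher, with 34.7% and 16.7% of all regions. The intronic region chr2:145635914-145637183 was lower, with 5.89, 5.18 and 4.64 normalised CPM in the B6 libraries, 3.87 and 5.38 in those of B6-13D2, 1.32, 1.15 and 1.38 in those of D2-13B6 and 1.25, 1.63 and 1.17 in those of D2. Its D2 against B6 value was -1.95 ± 0.22 (edgeR adjusted p = 2.43e-10), and its groups overlapped in both interval comparisons.

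The 9 Slc24a3 regions called lower in D2 than in D2-13B6 are 17.31% of the 52 regions, near the 15.2% of all regions called lower. None of the 9 was called in the B6 background, where only 0.474% of all regions were. Library totals were 15198496 to 27293140 in B6 and B6-13D2 and 29172484 to 43042955 in D2-13B6 and D2. B6-13D2 also has only 2 libraries, and the part of this in the shares was not tested. Fitted on the compared groups alone, B6-13D2 against B6 called 0.693% of regions lower and 0.494% higher. D2 against D2-13B6 then called 14.8% and 6.82%. Scaling by total counts kept 8 of these 9 calls and the sign of all 9, and added 1 region called higher. Over all regions this scaling gave 11.8% lower and 16.0% higher, where the main analysis gave 15.2% and 8.53%. At chr2:145214035-145214354 the values were 1.43, 1.89 and 2.45 normalised CPM in the B6 libraries, 2.00 and 2.09 in those of B6-13D2, 9.33, 14.6 and 9.46 in those of D2-13B6 and 4.36, 5.54 and 4.67 in those of D2. D2 against D2-13B6 was -1.20 ± 0.19 (edgeR adjusted p = 6.23e-07), B6-13D2 against B6 was 0.10 ± 0.28 (edgeR adjusted p = 0.980), and the interaction was 1.30 ± 0.33 (edgeR adjusted p = 0.0107). Here D2-13B6 was the highest line, where at the lead region B6 was. At chr2:145283817-145284121 the group means were 1.83 in the B6 libraries, 1.31 in those of B6-13D2, 9.07 in those of D2-13B6 and 4.61 in those of D2, with -0.98 ± 0.18 for D2 against D2-13B6 (edgeR adjusted p = 1.96e-05) and an interaction of 0.52 ± 0.35 that was not called (edgeR adjusted p = 0.409). The interaction was called for 4 of the 52 regions, all positive, where 4.55% of all regions had a positive and 1.99% a negative call (6.54% in all). With total counts all 4 stayed positive, 2 of them were called, and a different region was called negative. The region at the start of Gm14093, a gene within the Slc24a3 body, was 1 of the 9, at -1.08 ± 0.24 (edgeR adjusted p = 0.000406). D2-13B6 is the line with low ES cell and high fibroblast marker sums, and the part of this in these 9 calls was not tested.

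At Cyp3a44 none of the other 4 regions was called in either interval comparison, where 0.474% and 23.7% of all regions were. In edgeR's test and in DESeq2, 0 of the 4 reached an unadjusted p under 0.05. In edgeR's test 7.48% and 33.9% of all regions did, so 4 regions are too few to set this locus apart from all regions. The intergenic region chr5:145751529-145752346 had 2.06, 2.50 and 1.79 normalised CPM in the B6 libraries, 1.91 and 1.30 in those of B6-13D2, 1.06, 1.27 and 1.20 in those of D2-13B6 and 1.45, 1.499 and 1.06 in those of D2. It was lower in D2-13B6 than in B6, at a log2 fold change of -0.83 ± 0.27 (SE; edgeR adjusted p = 0.00976), and was not called in the other comparisons. The region at the start of Gm19089 had 2.93, 3.54 and 3.76 in B6 and 4.14 and 3.19 in B6-13D2 and overlapped in both interval comparisons.

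Genes related to the 3 were read at their own promoter regions. The 11 dynein adaptors examined, among them Bicd2 and the Hook genes, had 33 such regions, of which 0 were lower and 1, at Trak1, was higher in the comparison of B6-13D2 with B6 (0.139% of all regions higher). In D2 against D2-13B6, 4 were lower and 3 higher, where 15.2% and 8.53% of all regions were. Of 11 regions at 8 sodium/calcium exchanger genes, 0 were called in B6-13D2 against B6, where 0.474% of all regions were. In D2 against D2-13B6, 0 were lower and 2 higher, at Slc24a1 and Slc8a2, where 15.2% and 8.53% of all regions were. These are too few regions to set the genes apart from all regions. Of 8 other Cyp3a genes, 2 (Cyp3a11 and Cyp3a13) had a region, each with group means of at most 1.01 normalised CPM. Neither was called in any comparison, where 0.474% to 41.7% of all regions were. The median log2 fold change of B6-13D2 against B6 was 0.03 for the dynein adaptors and -0.01 for the exchangers.

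The tandem unit was followed through the table, because it links the Cyp3a44 and Slc24a3 lead regions. This search was made after the sequences and values of the lead regions had been seen, and it is reported without a test. A region held the unit when it had a match of at least 150 aligned bases at 80% identity or more. There were 2805 such regions, and 2403 of those off chromosome 13 were among the 234967 regions tested there, or 1.02%. In B6-13D2 against B6, 14.61% of them were called lower and 0 higher, against 0.309% lower and 0.0834% higher of all regions off chromosome 13. In D2 against D2-13B6, 18.98% were lower and 0.166% higher, against 15.3% and 7.63%. Of the 226 regions lower in both backgrounds (0.0962% of those tested), 132 (58.4%) held the unit, and of the 85 higher in both, 0 did. Without B6-13D2 replicate 1 it was 77 of 110, without replicate 2 it was 71 of 102, and with total counts 84 of 179. These 132 were 5.49% of the regions with the unit, so most regions with it were not called in both. Without the 3 of them that belong to the loci, the share lower in B6-13D2 against B6 was 14.5%.

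**Figure D4:**
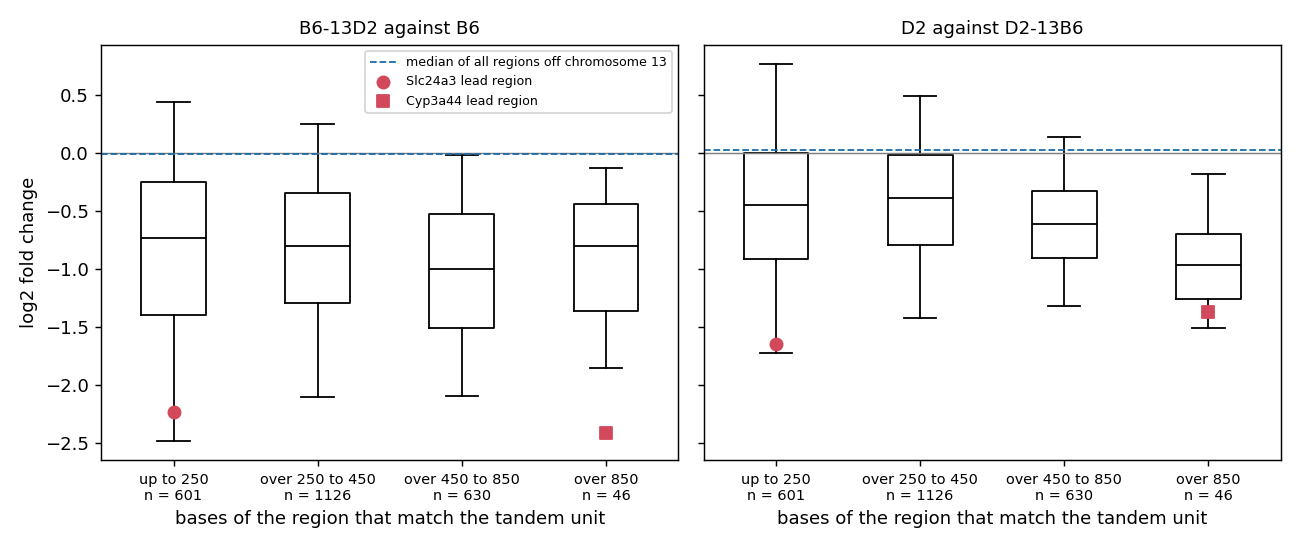
Log2 fold change of tested regions off chromosome 13 that hold the tandem unit, by the number of their bases that match it, for both interval comparisons (line, median; box, quartiles; whiskers, 5th to 95th percentile). The dashed line is the median of all regions off chromosome 13, which lies at -0.01 and 0.03, above the median of each class of regions with the unit. Red points are the Slc24a3 and Cyp3a44 lead regions.

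The median log2 fold change of the regions with the unit was -0.84 in B6-13D2 against B6 and -0.50 in D2 against D2-13B6, where all regions off chromosome 13 had -0.01 and 0.03. The share called lower in B6-13D2 against B6 was higher for longer matches, though the longest 2 classes were close. The median log2 fold change followed length less, with -0.73, -0.81, -1.01 and -0.81 from the shortest class to the longest. The share was 2.83% where the stretch held at most 250 bases (17 of 601 regions), 11.01% for more than 250 and at most 450 bases (124 of 1126), 30.95% for more than 450 and at most 850 bases (195 of 630) and 32.61% for more than 850 bases (15 of 46). Longer matches lie in wider and more accessible regions, whose median level was 0.376 normalised CPM in the shortest class and 2.39 in the longest, and the part of this in the shares was not tested. Regions without the unit of which at least 80% is soft-masked were called lower in 1.05% of cases in B6-13D2 against B6 and 2.59% in D2 against D2-13B6. They were called higher in 0.0741% and 10.1%, and their median log2 fold changes were -0.09 and 0.26. The Cyp3a44 lead region, with 933 matching bases, was in the longest class and the Slc24a3 lead region, with 242, in the shortest.

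The Bicd1 lead region lacks the unit and was compared with its own relatives. Off chromosome 13, 25 tested regions, itself included, had at least 300 aligned bases of similar sequence. Unlike for the unit, no identity was required, and the highest identity of the other regions ran from 68.1% to 95.2%. Without the Bicd1 lead region, which was chosen on these comparisons, 4 of 24 were lower and 0 higher in B6-13D2 against B6, where 0.309% of all regions off chromosome 13 were lower. In D2 against D2-13B6, 4 of the 24 were lower and 3 higher, or 16.67% and 12.5%, near the 15.3% and 7.63% of all regions there. The 3 lower in both were the Bicd1 lead region, chr11:21188532-21189687 and chr14:13751479-13752343. The chr11 relative had group means of 4.43 in the B6 libraries, 1.82 in those of B6-13D2, 4.92 in those of D2-13B6 and 1.81 in those of D2. There D2-13B6 was at the level of B6, where at the Bicd1 lead region it had 33.6% of the B6 mean. The closest relative by length, on chromosome 4 at chr4:61822774-61823735, matched over 827 bases and had 3.84, 2.40, 3.97 and 2.78 in the same order, with D2 lower than D2-13B6 (-0.51, edgeR adjusted p = 0.0484) and no call in the B6 background (-0.68, edgeR adjusted p = 0.356).

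The windows end between listed regions. The listed regions just outside the Bicd1 window had 0.859 and 1.37 normalised CPM in B6 and 1.05 and 1.95 in B6-13D2, and those just inside had 1.76 and 23.4 in B6 and 2.25 and 27.0 in B6-13D2. For Slc24a3 those just outside had 0.671 and 0.674 in B6 and 1.28 and 0.613 in B6-13D2, and for Cyp3a44 4.96 and 0.666 in B6 and 3.57 and 0.433 in B6-13D2.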

How the data were processed

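ATAC-seq counts of 11 libraries from 4 ES cell lines were used. Per the file headers, the authors removed duplicate and mitochondrial reads. The deposited values are raw counts per region in 1 table of 248336 regions, without normalisation. The submitters' processing notes name the build mm10 and Trimmomatic 0.39, BWA 0.7.5, Picard 2.0.1, MACS 1.4.2, bedtools 2.9.2 and edgeR 3.34.1, without roles. How multiply mapped reads, the transposase offset and fragments were treated is not given in the sources used here. Coordinates are printed as listed.

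Every region was fitted with edgeR 4.0.16 in R 4.3.3 (TMM, filterByExpr by group, robust quasi-likelihood, 1 coefficient per line, all libraries). The code was run on simulated counts with the B6 means in all lines, apart from regions set to follow the interval. All lines had the same spread there, so that run did not cover lines that differ in spread. P-values were adjusted by Benjamini-Hochberg over the 246840 regions tested, and an adjusted p under 0.05 is a call. Standard errors came from the F statistic. The interaction is the interval's difference in the B6 background minus that in the D2 background. DESeq2 1.42.0, other scalings, filters, a replicate term, the compared groups alone and each library left out were alternatives. Replicate numbers did not pair the libraries: over 15 same-numbered pairs, correlations of deviations from group means ran from -0.088 to 0.089. Annotation was GENCODE M21, and sequence was RefSeq GRCm38.p6, with matches from BLAST 2.17.0. No region ran past a chromosome end.

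Named regions were the lead regions, regions within 1000 bp of a start of the genes, the most accessible region, neighbours of the lead regions, window edges and the 3 regions with the smallest p of D2 against B6 and of D2-13B6 against B6. Further regions named were chosen after their values were seen. Errors include the spread between libraries, whose chi-square per degree of freedom between replicates was 2.06 to 6.33 (counting error alone gives about 1). It was 2.06 to 2.27 in B6, 2.11 in B6-13D2, 4.54 to 6.33 in D2-13B6 and 2.98 to 4.12 in D2. The fit uses 1 spread per region for all lines, so an error may not match the spread within the lines compared. PCR duplicates left after filtering are no independent molecules. The members and lists were chosen with earlier results of these data known.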

Additional observations from a re-analysis of the deposited data

Results flagged for a closer look

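At 4 intronic Slc24a3 regions, the difference with the interval itself differed between the backgrounds by the interaction term of edgeR's fit (adjusted p under 0.05 over all regions; 4.55% of all regions had a positive call). The interaction was positive at each, with 1.30 at chr2:145214035-145214354, 1.24 at chr2:145329959-145330316, 2.03 at chr2:145362000-145362188 and 1.83 at chr2:145370875-145371138.

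At each of these 4 Slc24a3 regions, D2-13B6 had the highest mean of the 4 lines, with 11.1, 5.15, 1.63 and 3.37 normalised CPM, where D2 had 4.86, 2.28, 0.599 and 1.57. Of the 4 calls, 0 were left without B6-13D2 replicate 1. There were 2 left without B6-13D2 replicate 2, B6 replicate 2, B6 replicate 3, D2-13B6 replicate 2, D2 replicate 1 or D2 replicate 2, and 3 without B6 replicate 1 or D2-13B6 replicate 1. The sign of all 4 was kept in each of these fits.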

How the results depend on the processing

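The lead-region differences with the interval, on which these regions were chosen, ran from -2.85 to -1.88 in the B6 background and from -1.76 to -1.01 in the D2 background over the alternatives, which is a description of their size. The number of the 73 regions called, lead regions included, stayed within 1.5 times of the main count for 4 of the 6 comparisons. For the interval comparisons this is a description, since the lead regions were chosen on them. In B6-13D2 against B6 only 1 of the 4 calls is not a lead region, and it was lost without B6 replicate 3. Leaving out 1 library each gave 13 to 24 calls for D2 against B6-13D2 (main 23, lowest without B6-13D2 replicate 1) and 1 to 7 for the interaction (main 5). With a replicate block, 4, 12, 33, 33, 23 and 5 of the 73 regions were called, where the fit without it gave 4, 12, 34, 34, 23 and 5; the numbers do not pair the libraries. The Slc24a3 promoter difference in B6-13D2 against B6, 0.00 in the main analysis, was -0.0808 with the replicate block and -0.0034 with total counts, and -0.0565 to 0.0702 with 1 library left out. That of Bicd1 was -0.0287 to 0.0966 with 1 library left out, and the region beside the Slc24a3 lead region ran from -1.17 to 0.81 in D2 against D2-13B6. The Bicd1 sum without the lead region was 95.4% of B6 when start-site regions were left out (main 105%), and the Cyp3a44 sum was 113% of D2-13B6 with total counts (main 101%). With total counts, the median over all regions went from 0.04 to 0.21 (log2) in D2 against D2-13B6 and from -0.13 to -0.43 in D2-13B6 against B6, and the cause of the changed calls was not tested. At 90% identity, 79 of the 226 regions lower in both backgrounds held the unit, and at 70% over 100 bases 134 did. With 2 or 3 libraries from 1 line per genotype, line and genotype cannot be told apart, and regions under 1 normalised CPM rest on few counts.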
